A study of Homo sapiens with 6 samples.

Results

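Cells build cholesterol and fatty acids from the same precursor, acetyl-CoA, along 2 enzyme chains whose genes are largely driven by the sterol regulatory element binding proteins. Set out here are 36 genes of these chains, chosen by symbol from a fixed list and all found by NCBI gene identifier among 40895 genes: 4 transcription factors and regulators, 18 sterol synthesis enzymes, the sterol transfer gene STARD4 and 13 enzymes of fatty acid synthesis and activation. Every one of the 36 passed the filter on low counts. All libraries are from A375SM, a human melanoma line selected for metastasis, and carry the genotype label WT. Cells of 3 libraries were transduced with a control short hairpin (shCtrl), those of the other 3 with one targeting PRAME (shPRAME), a tumour antigen of the testis found in many melanomas; polyA RNA was read as pairs of 150 bases, and all 6 libraries have the batch label 1. The sources used here do not give the hairpin sequences, the number of hairpins, the time after transduction or whether the cells were 1 clone. The shCtrl libraries are described as biological replicates and the shPRAME libraries as replicates, with nothing said of separate transductions, so the spread that p-values measure here may be technical only.

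As background, SREBP-2, the product of SREBF2, mainly drives sterol genes, and SREBP-1, from SREBF1, mainly fatty acid genes. Both are made as membrane proteins of the endoplasmic reticulum. When sterols are scarce, the escort protein SCAP carries them to the Golgi, where proteases release the active factor. When sterols are plentiful, INSIG1 holds SCAP back. Melanoma cells, like other dividing cells, use the products for membranes.

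Library totals lay between 30842788 and 34107332 counts, so that 3 counts, the limit a count of 0 allows, correspond to 0.088 to 0.0973 CPM (counts relative to library size); this floor covers counting error only. PRAME itself was counted 5623, 5356 and 5083 times in the shCtrl libraries, against 1803, 1993 and 1857 times under its hairpin, so every library matched its label. Of the 8 melanocyte lineage markers, SOX10 (7916 to 9541 counts a library) and MITF (1182 to 1532) were abundant, whereas TYR was at 0 in all libraries and PMEL, MLANA, DCT, TYRP1 and GPR143 had at most 11 counts in any library. Summed markers of fibroblasts lay between 112.5 and 116.5 CPM in shCtrl and between 88.1 and 95.3 CPM in shPRAME, and 5 of the 7 tested rose while PDGFRB and FAP fell. Among them COL1A2 had no count in shCtrl and 704 to 735 in shPRAME, LUM at most 1 and then 303 to 347, and DCN none and then 8 to 16. Those of leukocytes went from 43.0 to 45.4 CPM up to 72.4 to 74.3 CPM, nearly all of it CD68, and all 3 tested rose. PTPRC had no count in shCtrl and 27 to 36 in shPRAME, and LYZ went from 1 to 4 counts to 39 to 48, while CD3E was at 0. Adipocyte markers summed to 327.1 to 337.4 CPM in shCtrl and 228.5 to 247.5 CPM in shPRAME, nearly all of it the lipase gene LPL, with ADIPOQ and LEP at 0 in every library, and the summed hepatocyte markers stayed at or below 1.41 CPM. The 5 keratinocyte markers summed to 27.7 to 29.6 CPM in shCtrl and 23.3 to 24.4 CPM in shPRAME, nearly all of it KRT10, and the 5 endothelial markers to at most 0.947 CPM in shCtrl and 3.01 to 3.85 CPM in shPRAME, mostly TEK, with CDH5 at 0. Nuclear ribosomal RNA took 4.61% to 4.995% of counts in shCtrl and 2.07% to 3.14% in shPRAME. The part of these markers and of ribosomal RNA in the results below was not tested. In bulk RNA, fewer cells of a type and less RNA per cell cannot be told apart.

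More of the 36 genes rose than fell, by modest folds. At an adjusted p under 0.05 (edgeR quasi-likelihood test, Benjamini-Hochberg over 15954 genes), 20 rose in shPRAME, 10 fell and 6 did not pass; among all genes, 74.4% passed in either direction. The 20 that rose are 55.6% of the members, against 37.7% of all genes tested, and the 10 that fell are 27.8%, against 36.8%. The larger changes were about as common as elsewhere: 6 genes rose at least 1.5-fold (16.7%, against 16.6% of all genes) and 5 fell at least 1.5-fold (13.9%, against 16.0%). Groups did not overlap at 28 of the 36 genes (77.8%, against 76.5%). The median log2 fold change was 0.16 over the members and 0.01 over all genes, while the median size of a change, regardless of sign, was 0.28 for the members and 0.38 for all genes. No set test was run, and nothing particular to these genes follows from the shares. A neighbour correction is named wherever it ends or turns a call. It takes off each gene's log2 fold change the median of up to 25 tested genes on each side of it on the chromosome. That median enters the fit as a fixed value. Its own error is left out of the adjusted p given after the correction, so small corrected changes are less certain than these p say.

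**Figure D1:**
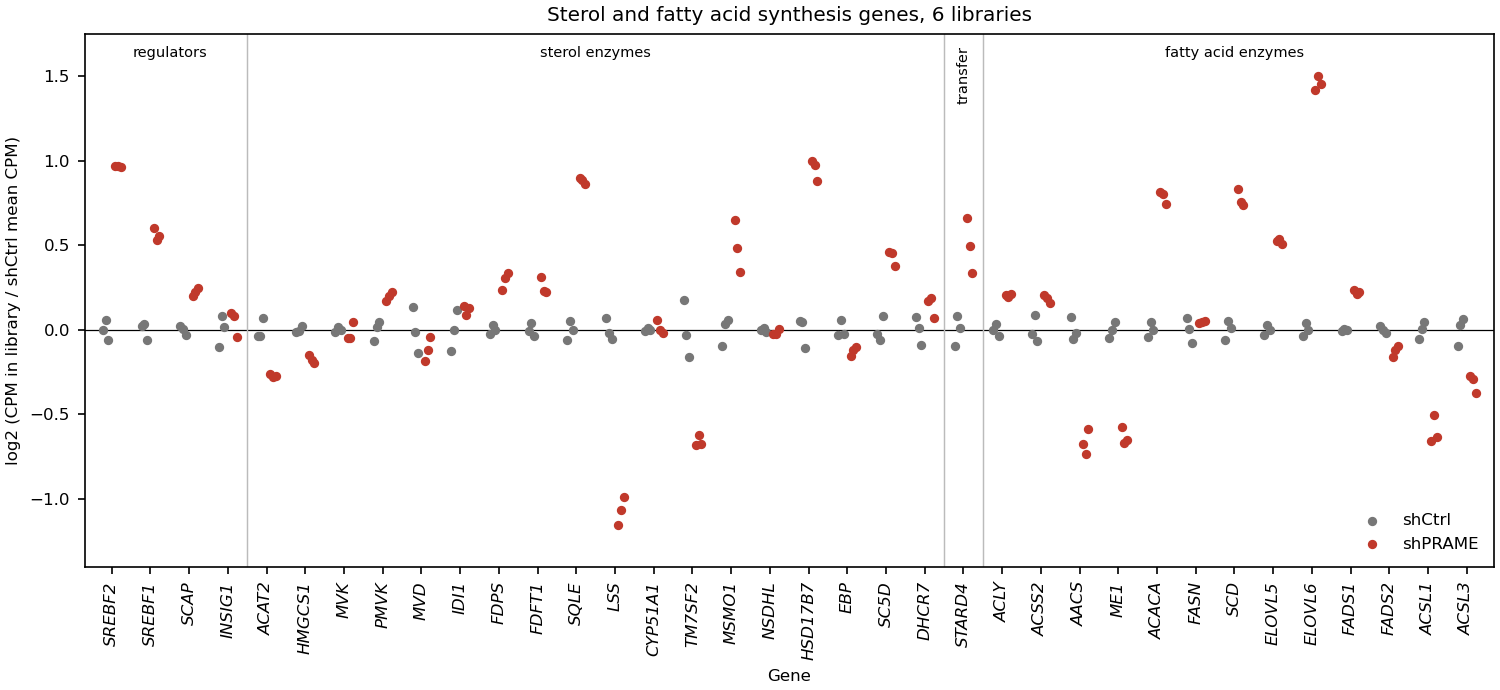
Level of each gene in each of the 6 libraries, as the log2 ratio of its CPM to the shCtrl mean (vertical axis), for the 36 genes in role order (horizontal axis). Each point is 1 library, grey for shCtrl and red for shPRAME. ELOVL6, SREBF2, HSD17B7 and SQLE stand highest above the controls and LSS stands lowest.

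For 4 of the genes that changed at least 1.5-fold, from each main role, the 250 bases before a RefSeq transcription start are shown (GRCh38.p14), to set their promoters beside the expression values. SREBF2 (chr22:41832855-41833104, plus strand), SCD (chr10:100346983-100347232, plus strand) and ELOVL6 (chr4:110198616-110198865, minus strand) rose, and LSS (chr21:46228775-46229024, minus strand) fell. The ELOVL6 stretch lies inside the span of the gene (110045846 to 110199202), so the start used there is not the outermost one. The same holds for the windows of some other members, such as PMVK. Capitals mark the sterol regulatory element TCACNCCAC, the CCAAT box and the GC box GGGCGG, each on either strand (so that ATTGG and CCGCCC are marked too).
SREBF2: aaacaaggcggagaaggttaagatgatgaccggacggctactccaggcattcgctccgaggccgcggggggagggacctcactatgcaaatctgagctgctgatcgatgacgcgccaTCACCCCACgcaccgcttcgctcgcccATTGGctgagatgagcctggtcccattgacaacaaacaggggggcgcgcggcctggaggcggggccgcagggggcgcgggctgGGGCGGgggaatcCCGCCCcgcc
SCD: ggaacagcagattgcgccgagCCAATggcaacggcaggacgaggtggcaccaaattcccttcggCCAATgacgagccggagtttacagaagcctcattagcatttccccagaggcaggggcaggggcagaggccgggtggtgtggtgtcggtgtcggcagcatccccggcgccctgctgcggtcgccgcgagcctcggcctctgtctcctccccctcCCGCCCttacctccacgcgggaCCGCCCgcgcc
ELOVL6: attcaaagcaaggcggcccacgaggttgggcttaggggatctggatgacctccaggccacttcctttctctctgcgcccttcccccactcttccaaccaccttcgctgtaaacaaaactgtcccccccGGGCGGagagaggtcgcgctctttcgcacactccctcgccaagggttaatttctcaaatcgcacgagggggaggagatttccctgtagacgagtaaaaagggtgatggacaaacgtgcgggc
LSS: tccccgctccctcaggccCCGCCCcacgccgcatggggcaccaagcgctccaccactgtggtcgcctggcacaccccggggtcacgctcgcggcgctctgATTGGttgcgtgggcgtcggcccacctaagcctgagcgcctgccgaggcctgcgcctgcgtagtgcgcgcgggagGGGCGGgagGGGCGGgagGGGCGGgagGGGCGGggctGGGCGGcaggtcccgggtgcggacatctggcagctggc
SREBF2 was the 1 member of 32 in the RefSeq promoter table that held TCACNCCAC, which lies 133 to 125 bases before its start. SREBP-2 is known to bind such a site in its own promoter together with NF-Y, the factor that binds CCAAT. The 9-letter element occurred in the 300-base windows (250 before to 50 after the start) of 1.04% of 12263 tested genes with a promoter in the table. CCAAT was found in 20 of the 32 member windows (62.5%, against 36.6% of tested genes), GGGCGG in 29 (90.6%, against 66.4%) and the E-box CACGTG in 5 (15.6%, against 9.89%). These are matches of letters, described without a test. Only exact matches inside the windows were sought, so a binding site spelled otherwise or lying elsewhere would be missed. A promoter without a match is therefore not shown to lack a site. ACAT2, FDFT1, SQLE and FASN had no promoter in the table.

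The mRNAs of both SREBP factors rose, that of SREBF2 more. SREBF2 (chromosome 22, 41833105 to 41907305) stood at 52.6, 54.9 and 50.5 CPM in the shCtrl libraries and at 103.0, 102.8 and 102.7 CPM in the shPRAME libraries. The groups were far apart, and the shPRAME libraries were almost equal. The rise was 1.95-fold (log2 fold change 0.96, SE 0.033, edgeR adjusted p = 4.88e-14). SREBF1 (chromosome 17, 17811334 to 17836986) had 60.3, 60.8 and 56.9 CPM in shCtrl and 90.1, 85.8 and 87.2 CPM in shPRAME. Again no libraries overlapped, and the rise was 1.48-fold (SE 0.0341 on the log2 scale, edgeR adjusted p = 1.07e-10). The count of SREBF2 relative to SREBF1 was 0.887 ± 0.0155 in shCtrl and 1.17 ± 0.0283 in shPRAME (SD, n = 3 each). No test was run on the ratio, and no library of one group reached the range of the other.

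SCAP, the sterol-sensing escort, rose slightly and its retention factor INSIG1 did not pass. SCAP (chromosome 3, 47413681 to 47477127) had 56.5, 55.7 and 54.5 CPM in shCtrl and 63.8, 65.0 and 65.9 CPM in shPRAME, a 1.17-fold rise (edgeR adjusted p = 7.57e-06) with no overlap. INSIG1 (chromosome 7, 155297878 to 155310235), itself a well-known SREBP target, had 56.1, 63.9 and 60.8 CPM in shCtrl and 64.4, 63.7 and 58.5 CPM in shPRAME. The highest INSIG1 value was in shPRAME and the groups overlapped (log2 fold change 0.05, SE 0.0461, edgeR adjusted p = 0.375). After the neighbour correction INSIG1 was higher by a log2 value of 0.35 (edgeR adjusted p = 3.06e-06). The 4 regulators summed to 222.6 to 235.4 CPM in shCtrl and 314.3 to 321.4 CPM in shPRAME.

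In the sterol chain, 9 of 18 enzyme genes rose (50%, against 37.7% of all genes tested). A further 5 fell (27.8%, against 36.8%) and 4 did not pass. Changes of at least 1.5-fold made up 11.1% in each direction, against 16.6% higher and 16.0% lower among all genes. The median log2 fold change was 0.07, against 0.006 over all genes. The summed level went from 672.6 ± 8.62 to 761.7 ± 8.41 CPM (SD, n = 3 each, no test). Changes differed from step to step. Squalene epoxidase and a ketone reductase late in the chain rose at least 1.5-fold. Lanosterol synthase and the sterol reductase TM7SF2 fell at least 1.5-fold. After the neighbour correction, squalene epoxidase, lanosterol synthase and TM7SF2 differed by less than 1.5-fold. The genes of the first steps, up to mevalonate phosphorylation, moved by smaller folds or did not pass.

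Among the genes of the early steps, ACAT2, which makes acetoacetyl-CoA, fell from 39.4 ± 1.72 to 32.6 ± 0.223 CPM (edgeR adjusted p = 1.66e-05). HMGCS1, HMG-CoA synthase, fell from 41.1 ± 0.511 to 36.4 ± 0.570 CPM (edgeR adjusted p = 0.000401). After the neighbour correction both were higher instead, ACAT2 by a log2 value of 0.20 (edgeR adjusted p = 0.000399) and HMGCS1 by 0.18 (0.000355). ACAT2 overlaps TCP1 by 615 bases. That chaperonin gene had 16498 to 17748 counts in shCtrl and 12806 to 14173 in shPRAME, so ACAT2 counts are uncertain where counting ignored strand. Mevalonate kinase, MVK (9.61 ± 0.0858 and 9.49 ± 0.360 CPM), and mevalonate diphosphate decarboxylase, MVD (7.64 ± 0.733 and 7.06 ± 0.347 CPM), did not pass, but MVD was lower after the neighbour correction (log2 value -0.31, edgeR adjusted p = 0.0079). PMVK, the phosphomevalonate kinase between them, rose 1.15-fold and did not pass after the neighbour correction (edgeR adjusted p = 0.11).

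Genes of the isoprenoid steps rose by small folds. IDI1, the isopentenyl diphosphate isomerase, rose 1.09-fold, but its groups overlapped (edgeR adjusted p = 0.0278; 0.202 without shCtrl replicate 1). Farnesyl diphosphate synthase, FDPS, went from 80.6 ± 1.497 to 98.7 ± 3.42 CPM. FDFT1, squalene synthase, which commits farnesyl diphosphate to sterols, went from 130.6 ± 3.59 to 155.8 ± 5.59 CPM. These are rises of 1.22-fold and 1.19-fold with no overlap between the groups (edgeR adjusted p = 2.63e-07 and 9.37e-07).

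The enzyme genes that make squalene epoxide and cyclise it to lanosterol moved in opposite directions. SQLE, squalene epoxidase (chromosome 8, 124998505 to 125022283), had 55.4, 59.9 and 57.8 CPM in shCtrl and 107.6, 106.4 and 104.9 CPM in shPRAME, a 1.84-fold rise (SE 0.0326 on the log2 scale, edgeR adjusted p = 1.40e-13). All shPRAME values lay well above the controls. LSS, lanosterol synthase (chromosome 21, 46188446 to 46228774), had 35.1, 33.0 and 32.2 CPM in shCtrl and 15.05, 16.01 and 16.9 CPM in shPRAME, a 2.09-fold fall (log2 fold change -1.06, SE 0.055, edgeR adjusted p = 1.24e-11). It had the largest fall of the 36 genes, again without overlap. The count ratio of SQLE to LSS was 1.73 ± 0.130 in shCtrl and 6.67 ± 0.468 in shPRAME (SD, n = 3 each). Neighbouring genes shifted in the same direction as each of them. After the neighbour correction the log2 values were 0.17 for SQLE and -0.24 for LSS (edgeR adjusted p = 0.000225 and 0.000849).

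After lanosterol, the demethylase CYP51A1 did not pass (89.9 ± 0.532 and 90.7 ± 2.60 CPM, edgeR adjusted p = 0.706), and was higher by a log2 value of 0.10 after the neighbour correction (0.0075). TM7SF2, a sterol C14 reductase that acts on its product (chromosome 11, 65111872 to 65116230), was the least abundant of the 36 genes. It had 3.08, 2.66 and 2.43 CPM in shCtrl and 1.70, 1.77 and 1.71 CPM in shPRAME, a 1.58-fold fall (SE 0.145 on the log2 scale, edgeR adjusted p = 0.000581). The controls varied more than the shPRAME libraries, and the groups did not overlap.

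In the removal of the C4 methyl groups, MSMO1, a sterol oxidase, rose from 12.7 ± 0.717 to 18.0 ± 1.91 CPM, but did not pass after the neighbour correction (edgeR adjusted p = 0.822). NSDHL, which acts with it, did not pass (19.5 ± 0.155 and 19.3 ± 0.250 CPM), and was higher by a log2 value of 0.34 after that correction (edgeR adjusted p = 1.54e-05). HSD17B7, the 3-ketosteroid reductase of the same step (chromosome 1, 162790702 to 162812823), had 8.79, 8.75 and 7.85 CPM in shCtrl and 16.9, 16.7 and 15.6 CPM in shPRAME. Its groups were clearly apart, with a 1.93-fold rise (SE 0.071 on the log2 scale, edgeR adjusted p = 1.88e-09). Its pseudogene HSD17B7P2 had no count in shCtrl and 4 to 6 in shPRAME.

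Of the final steps, SC5D, the lathosterol desaturase, rose 1.35-fold, from 19.7 ± 0.991 to 26.5 ± 0.847 CPM, and did not pass after the neighbour correction (edgeR adjusted p = 0.567). EBP, a sterol isomerase, was 1.09-fold lower (edgeR adjusted p = 0.0263; up to 0.104 with 1 library left out, the highest without shCtrl replicate 2). After the neighbour correction it was higher by a log2 value of 0.20 (edgeR adjusted p = 0.00116). DHCR7, which completes cholesterol, was 1.10-fold higher (edgeR adjusted p = 0.0321; up to 0.141 with 1 library left out, the highest without shCtrl replicate 3). Both of these small changes stood near the threshold.

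STARD4, a carrier that moves cholesterol between membranes, rose 1.42-fold, from 25.9 ± 1.57 to 36.7 ± 4.20 CPM (SE 0.0682 on the log2 scale, edgeR adjusted p = 3.86e-06), without overlap.

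Among the 13 fatty acid genes 7 rose (53.8%, against 37.7% of all genes tested) and 5 fell (38.5%, against 36.8%). The other 1, FASN, did not pass. Their median log2 fold change was 0.18, against 0.006 over all genes. The genes that rose at least 1.5-fold were ELOVL6, ACACA and SCD, and those that fell at least 1.5-fold were AACS, ME1 and ACSL1. These are 23.1% in each direction, against 16.6% higher and 16.0% lower among all genes. Summed, the 13 genes went from 2583 ± 36.4 to 2967 ± 33.0 CPM (SD, n = 3 each, no test).

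Supply genes for acetyl-CoA, acetoacetyl-CoA and NADPH split. ACLY, ATP citrate lyase, rose 1.15-fold from 350.6 ± 8.25 to 403.4 ± 3.01 CPM, and ACSS2, acetyl-CoA synthetase, 1.14-fold, though ACSS2 did not pass after the neighbour correction (edgeR adjusted p = 0.149). AACS, acetoacetyl-CoA synthetase (chromosome 12, 125065435 to 125143316), had 54.0, 49.3 and 50.5 CPM in shCtrl and 32.0, 30.8 and 34.2 CPM in shPRAME, a 1.59-fold fall (SE 0.0459 on the log2 scale, edgeR adjusted p = 6.36e-10). The NADPH-producing malic enzyme gene ME1 (chromosome 6, 83210402 to 83431051) had 70.8, 73.3 and 75.8 CPM in shCtrl and 49.1, 46.2 and 46.6 CPM in shPRAME, a 1.55-fold fall (SE 0.0365 on the log2 scale, edgeR adjusted p = 5.68e-11). In both genes all shPRAME libraries lay below all controls.

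At the core of the chain the carboxylase rose and the synthase did not pass. ACACA, acetyl-CoA carboxylase 1 (chromosome 17, 37084992 to 37406836), had 119.8, 127.5 and 123.2 CPM in shCtrl and 216.9, 215.4 and 206.4 CPM in shPRAME, a 1.72-fold rise (SE 0.0294 on the log2 scale, edgeR adjusted p = 1.62e-13). FASN, fatty acid synthase, had 790.4, 758.1 and 714.8 CPM in shCtrl and 775.1, 778.7 and 781.2 CPM in shPRAME. The shPRAME values of FASN fell inside the control range (log2 fold change 0.04, SE 0.0297, edgeR adjusted p = 0.182), and it passed without shCtrl replicate 1 (edgeR adjusted p = 0.0148) and with scaling to library totals only (0.0118). After the neighbour correction FASN was lower, by a log2 value of -0.15 (edgeR adjusted p = 0.000267). The count ratio of ACACA to FASN was 0.164 ± 0.0110 in shCtrl and 0.274 ± 0.00823 in shPRAME.

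The desaturase and elongase genes of saturated chains both rose. SCD, stearoyl-CoA desaturase, which makes oleic acid (chromosome 10, 100347233 to 100364826), had 299.2, 322.9 and 313.6 CPM in shCtrl and 555.8, 525.4 and 520.5 CPM in shPRAME, a 1.71-fold rise (SE 0.0302 on the log2 scale, edgeR adjusted p = 2.77e-13). ELOVL6, which extends palmitate to stearate (chromosome 4, 110045846 to 110199202), had 30.7, 32.4 and 31.6 CPM in shCtrl and 84.3, 89.3 and 86.5 CPM in shPRAME. At 2.75-fold this was the largest rise among the 36 genes (log2 fold change 1.46, SE 0.0361, edgeR adjusted p = 6.38e-16). In both genes every shPRAME library was well above every control.

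Genes of the polyunsaturated branch changed less. ELOVL5, an elongase of polyunsaturated chains, rose 1.44-fold, from 105.1 ± 2.13 to 151.1 ± 1.55 CPM. The neighbouring desaturase genes FADS1 and FADS2 differed: FADS1 rose 1.17-fold, from 197.9 ± 0.913 to 231.3 ± 1.86 CPM, and FADS2 was 1.09-fold lower (edgeR adjusted p = 0.0349; from 0.0401 to 0.122 with 1 library left out, the highest without shPRAME replicate 1). They overlap by 801 bases, so their reads may be shared in part.

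Of the acyl-CoA synthetase genes, whose products activate free fatty acids, ACSL1 fell under every alternative run, and ACSL3 fell except after the neighbour correction. ACSL1 (chromosome 4, 184755595 to 184826594) had 34.3, 35.8 and 36.8 CPM in shCtrl and 22.6, 25.1 and 22.9 CPM in shPRAME, a 1.51-fold fall (SE 0.0503 on the log2 scale, edgeR adjusted p = 9.09e-09). ACSL3, a synthetase of lipid droplets, fell 1.24-fold, from 457.8 ± 26.3 to 368.8 ± 13.8 CPM, but was higher by a log2 value of 0.20 after the neighbour correction (edgeR adjusted p = 7.00e-05). No shPRAME library reached the control range in either gene.

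**Figure D2:**
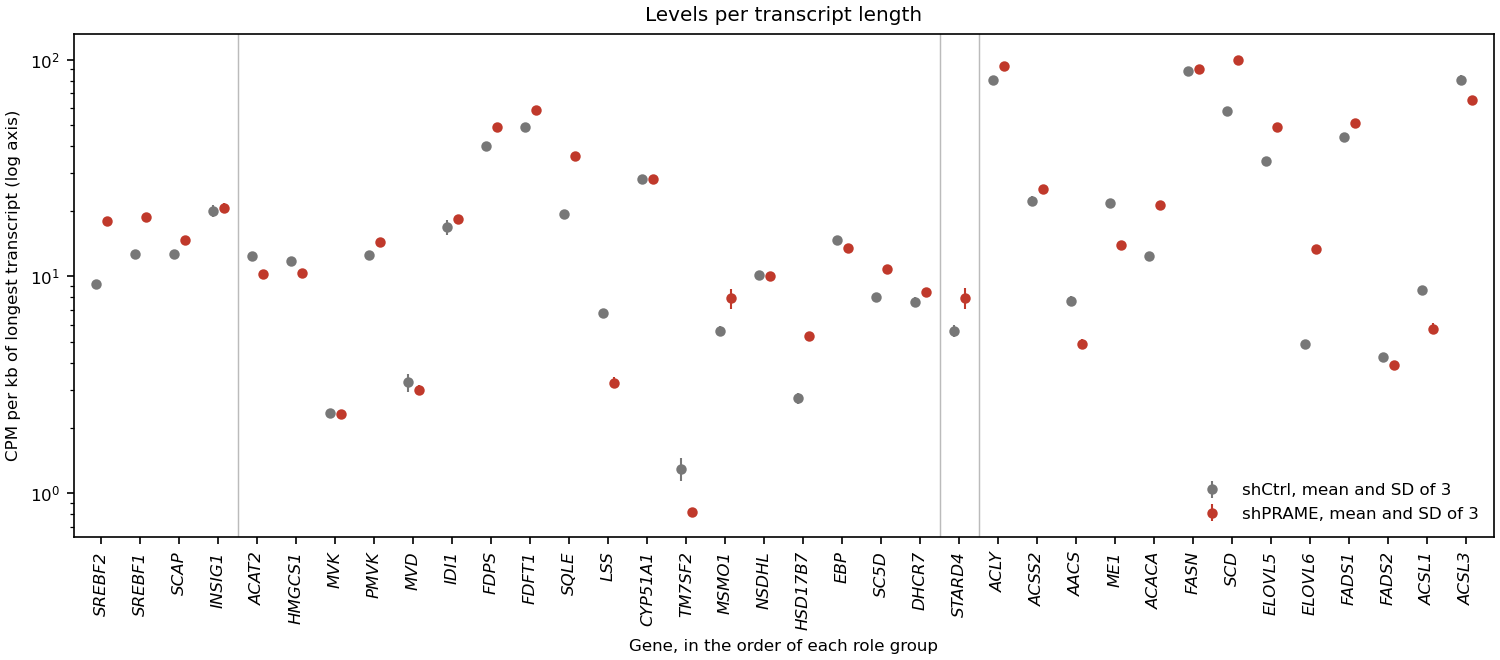
Level of each gene per kilobase of its longest GENCODE transcript (vertical log axis, CPM per kb) for the 36 genes in role order (horizontal axis). Points are means and bars SDs of 3 libraries, grey for shCtrl and red for shPRAME; FASN, ACLY, ACSL3 and SCD lie highest and TM7SF2 lowest.

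On the scale of CPM per kilobase of the longest GENCODE transcript, which allows levels of different genes to be set side by side, FASN (88.1), ACLY (80.8) and ACSL3 (80.6) led in shCtrl, and SCD (99.6) and ACLY (93.0) in shPRAME. The median of fatty acid genes was 22.3 in shCtrl and 25.3 in shPRAME, and that of sterol enzymes 10.9 and 10.3. FDFT1 was the highest of the sterol enzymes in shCtrl at 49.1, and the lowest was TM7SF2 at 1.30. SREBF2 and SREBF1 stood at 9.24 and 12.8 in shCtrl and at 18.0 and 18.9 in shPRAME. The longest transcript need not be the one these cells use.

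Several of the genes changed by about as much as the genes beside them on the chromosome. For each gene the median log2 fold change of up to 25 tested genes on each side (32 to 50 in all) was taken. It ranged from -0.82 to 0.72 for the members, while 95% of all tested genes lay between -0.50 and 0.54. Both ends are sterol enzymes: the neighbours of LSS on chromosome 21 had a median of -0.82 beside its own -1.06, and those of SQLE on chromosome 8 had 0.72 beside its own 0.88. MSMO1 (0.50, neighbours 0.47) and SC5D (0.43, neighbours 0.47) also had values close to those of their neighbours. SCD (0.78, neighbours -0.11), STARD4 (0.50, neighbours -0.34), AACS (-0.66, neighbours 0.01) and ACSL1 (-0.60, neighbours 0.25) had values far from theirs.

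With that neighbour median taken off each gene, 23 members were higher and 8 lower, against 35.9% and 35.3% of all genes. In both analyses 16 members were higher and 6 lower, and 4 that had fallen, ACAT2, HMGCS1, EBP and ACSL3, became higher. LSS then differed by a log2 value of -0.24 (edgeR adjusted p = 0.000849) and SQLE by 0.17 (0.000225), each under 1.5-fold. ACACA (0.57), ME1 (-0.38) and TM7SF2 (-0.52) also came under 1.5-fold. INSIG1, which had not passed, was higher by 0.35 (3.06e-06). Of genes at least 1.5-fold higher, ELOVL6 (1.04), SCD (0.89), STARD4 (0.84), HSD17B7 (0.74) and SREBF2 (0.68) made up the set of 5, and AACS (-0.67) and ACSL1 (-0.85) were at least 1.5-fold lower. The adjusted p after the correction leave out the error of the neighbour median. What gives neighbouring genes a common shift was not tested.

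**Figure D3:**
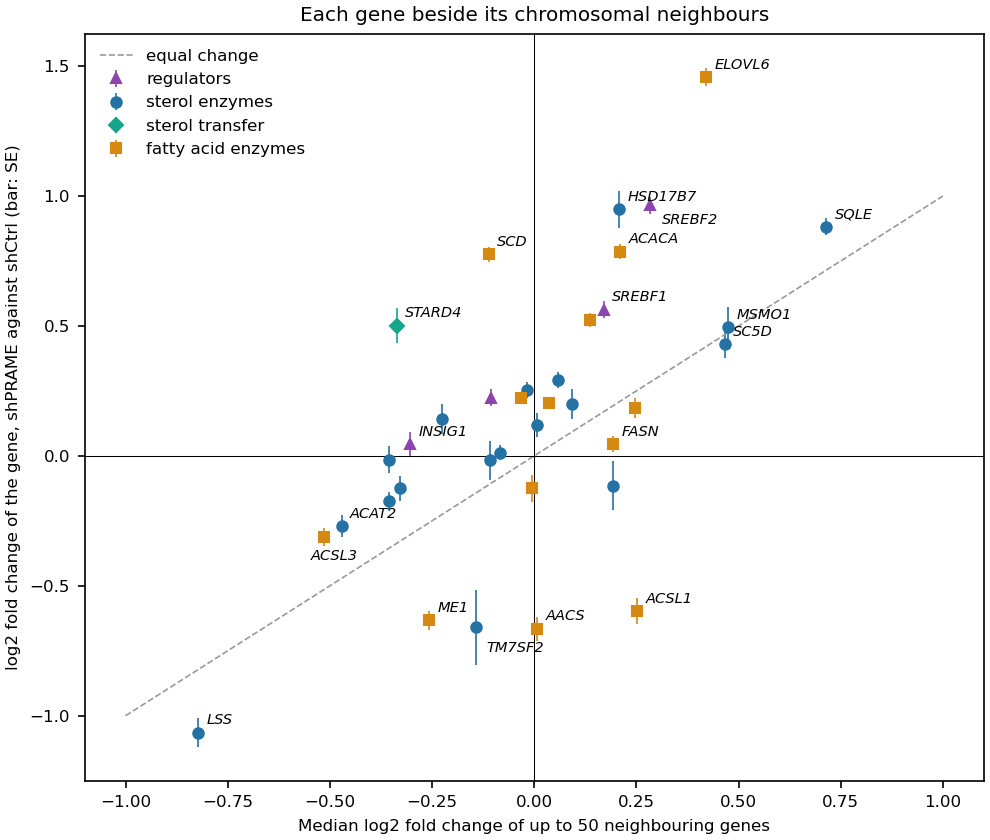
Log2 fold change of each of the 36 genes with its standard error (vertical axis) against the median log2 fold change of up to 50 neighbouring tested genes (horizontal axis); the dashed line marks equal change. LSS and SQLE lie near the line at its ends (-1.06 beside -0.82, and 0.88 beside 0.72), whereas ELOVL6, SCD and STARD4 lie above it and AACS and ACSL1 below it.

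Other genes of lipid metabolism moved in both directions. Among all genes tested 37.7% rose and 36.8% fell, and 35.9% and 35.3% did so after the neighbour correction. No set test was run on the lists that follow. Of 16 further genes of SREBP processing and stability 7 rose and 7 fell, and 4 were higher and 8 lower after the neighbour correction. TMEM97, a sterol-responsive membrane protein, rose from 53.5 ± 0.719 to 114.6 ± 1.14 CPM, and MBTPS1, the Golgi protease that makes the first cut in SREBP, from 135.0 ± 2.10 to 208.0 ± 4.26 CPM. SEC24D and SEC24A, coat proteins of vesicles that leave the endoplasmic reticulum, fell from 76.4 ± 0.515 to 48.9 ± 0.754 CPM and from 178.9 ± 9.18 to 116.5 ± 3.01 CPM. Of 17 genes of the non-sterol isoprenoid branch 4 rose and 10 fell, with SRD5A3, a polyprenol reductase, rising from 11.0 ± 0.462 to 23.2 ± 0.380 CPM and RABGGTB, a geranylgeranyl transferase subunit, falling from 114.2 ± 3.67 to 69.2 ± 0.794 CPM. After the neighbour correction 6 genes of this branch were higher and 5 lower.

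Among genes of cholesterol handling, 10 of 21 for uptake and trafficking rose and 8 fell (9 and 9 after the neighbour correction). Those that rose are 47.6% and those that fell 38.1%, against 37.7% and 36.8% of all genes tested. NPC2, which hands cholesterol out of lysosomes, rose from 43.5 ± 1.07 to 143.0 ± 5.49 CPM, whereas LIPA, the lysosomal acid lipase that frees it from esters, fell from 125.6 ± 4.45 to 42.9 ± 0.891 CPM. Of 9 tested genes of the sterol receptor LXR and of export or storage 3 rose and 3 fell (3 and 5 after it). ABCA1, the cholesterol exporter, rose from 1.10 ± 0.260 to 4.61 ± 0.520 CPM and CYP27A1, a sterol hydroxylase, from 2.57 ± 0.334 to 6.98 ± 0.349 CPM. SOAT1, which esterifies cholesterol for storage, fell from 106.1 ± 0.838 to 78.7 ± 2.4997 CPM.

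For fatty acids, 6 of 18 other tested elongation, desaturation and activation genes rose and 9 fell (6 and 6 after the neighbour correction). The shares to set beside the counts of this paragraph are 37.7% higher and 36.8% lower among all genes tested (35.9% and 35.3% after that correction). ELOVL2, an elongase of very long polyunsaturated chains, rose from 8.22 ± 0.329 to 26.4 ± 0.546 CPM, and MID1IP1, an activator of acetyl-CoA carboxylase, from 6.97 ± 0.536 to 21.4 ± 1.73 CPM. FADS3 fell from 33.8 ± 1.41 to 14.5 ± 0.246 CPM. Of 18 genes supplying acetyl-CoA and NADPH 5 rose and 12 fell (4 and 10 after it), with ACSS1, the mitochondrial acetyl-CoA synthetase, falling from 31.7 ± 2.35 to 9.05 ± 0.377 CPM and IDH1, an NADPH source of the cytosol, rising from 117.5 ± 4.91 to 164.5 ± 2.66 CPM. Glycerolipid and phospholipid synthesis gave 10 up and 10 down of 25 tested, but 7 and 12 after the neighbour correction. There PLIN2, the lipid droplet coat protein, fell from 145.6 ± 1.48 to 80.4 ± 0.470 CPM and AGPAT5, an acyltransferase, rose from 114.0 ± 2.01 to 200.7 ± 1.73 CPM. Fatty acid oxidation gave 10 up and 9 down of 26 (10 and 11 after the neighbour correction). There CPT1A, the gatekeeper of mitochondrial uptake, fell from 75.4 ± 0.975 to 37.7 ± 2.58 CPM. HADH rose from 23.2 ± 1.11 to 36.5 ± 0.623 CPM. The genes named in these lists had edgeR adjusted p of 5.00e-09 or smaller.

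**Figure D4:**
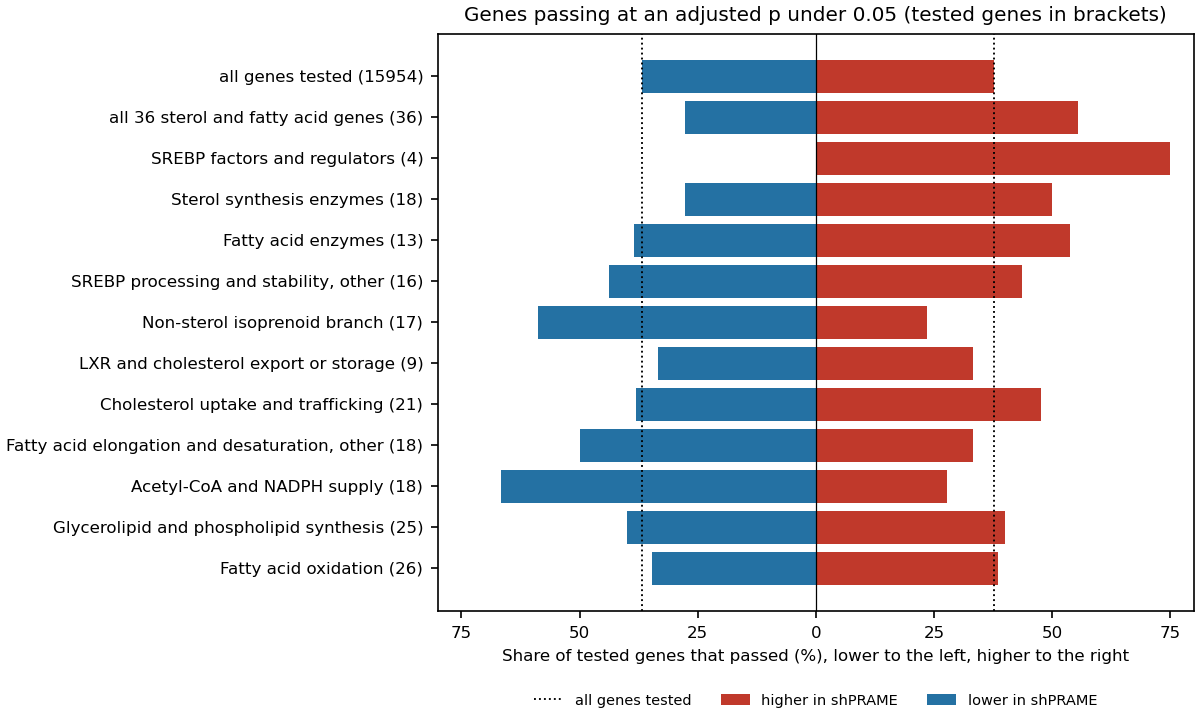
Share of tested genes that passed (horizontal axis, percent), lower in shPRAME to the left in blue and higher to the right in red, for the 36 genes, their role groups and 8 other lists (vertical axis, tested genes in brackets). Dotted lines mark all genes tested, 37.7% higher and 36.8% lower; the lists of acetyl-CoA and NADPH supply and of the isoprenoid branch reach farthest to the left.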

How the data were processed

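The deposited values are counts per gene, whole numbers with no normalization, per the file headers and values, keyed by NCBI gene identifier. Per the submitters' processing notes, the tools were fastp, STAR and Salmon, with GRCh38 and hg38 as builds. Which tool gave the counts, its strand setting and the annotation release are not given there. Repeated rows of one identifier were added (34 a library), and 106 of 40895 identifiers without a RefSeq match held at most 0.00929% of counts. edgeR 4.0.16 (R 4.3.3) was run with filterByExpr, TMM scaling and the quasi-likelihood test on 3 shPRAME against 3 shCtrl libraries, with Benjamini-Hochberg adjustment over 15954 genes. Library totals were 30842788 to 34107332 counts. Levels are TMM-scaled CPM (counts relative to library size), and ± is the SD over 3 libraries. Standard errors are the log2 fold change divided by the square root of F.

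The members and lists were chosen with earlier results of these data known. Named in full were the 4 regulators and members that passed and changed at least 1.5-fold; of each other list, at most the 2 genes a direction with the smallest adjusted p, among those called with a mean of at least 1 CPM. The script was tested on simulated data. Alternatives were RLE factors, library totals only, no filter, at least 1 CPM in 3 libraries, DESeq2 1.42.0, limma-voom (3.58.1), a replicate block, leaving out each library, and removal of the median change of 25 tested genes on each side. Promoters and coordinates are RefSeq's, GRCh38.p14, and transcript lengths GENCODE's.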

Additional observations from a re-analysis of the deposited data

How the results depend on the processing

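Apart from the neighbour analysis, 436 of 468 values over the alternatives kept their direction and their side of the threshold, and 27 of the 36 genes kept both call and direction under each. DHCR7, EBP, FADS2, FASN and IDI1 changed call, and CYP51A1, INSIG1, MVK and NSDHL, which never passed there, changed sign. With library totals only, which moves the median of all genes from 0.006 to 0.056 (log2), 3 genes instead of 5 were at least 1.5-fold lower, the median was 0.23 instead of 0.18 for fatty acid enzymes and 0.12 instead of 0.07 for sterol enzymes, and MVK (0.033) and NSDHL (0.04) changed sign. With the neighbours' shift removed, 2 genes were at least 1.5-fold lower, 3 sterol enzymes were lower instead of 5, and the sterol median was 0.14; the log2 fold change turned to 0.20 for ACAT2, 0.20 for ACSL3, -0.062 for ACSS2, 0.20 for EBP, -0.15 for FASN, 0.18 for HMGCS1, 0.091 for MVK, 0.34 for NSDHL and -0.035 for SC5D. Leaving out 1 library at a time gave 18 to 20 genes higher and 8 to 10 lower, a fatty acid median of 0.15 to 0.22 and a sterol median of 0.033 (without shCtrl replicate 1) to 0.079. The log2 fold change then ranged from -0.0043 to 0.036 for CYP51A1, from -0.0066 to 0.097 for INSIG1 and from -0.042 to 0.0058 for MVK. The cause was not tested.

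With DESeq2, DHCR7 (adjusted p = 0.108), EBP (0.131), FADS2 (0.167) and IDI1 (0.0576) did not pass. EBP and FADS2 also did not pass with library totals only (edgeR adjusted p = 0.169 and 0.1995) or with no filter (0.052 and 0.0821). Replicate numbers did not pair the libraries: deviations of same-numbered libraries correlated at -0.0589, -0.119 and -0.0999, and no library correlated best with its own number. The replicate block called 11603 genes instead of 11875, and of the members only FADS2 (adjusted p = 0.0513) lost its call. Depth limits the least abundant gene, TM7SF2, most, with 53 to 104 counts a library.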
